A study of Mus musculus with 17 samples.

Results

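The collagen genes of the mouse were examined in 17 mammary tumours. They were taken as all genes with a single-gene probe set whose symbol reads Col, a number, the letter a and a number, which gave 36 of the 12393 genes measured. The 36 genes comprised 9 of fibrillar collagens, 8 of basement membrane collagens and 19 of other types, and for the 19 genes with several probe sets the one with the highest mean over the 17 arrays stood for the gene. All tumours came from FVB mice that carry a Myc transgene with the T58A mutation under the MMTV promoter, which is active chiefly in mammary epithelium, and the study names the series as low expressing. By their histology labels the tumours were Squamous (n = 9), EMT (n = 6; the letters usually stand for epithelial-mesenchymal transition), Papillary (n = 1) and Microacinar (n = 1). No normal gland was among the arrays, every group carries the transgene, and neither an age nor a treatment is given. Whether each tumour came from its own animal is not stated. Squamous 7 shares a title number with Squamous 8, and Squamous 5 shares another with the Microacinar tumour. Every p-value here thus reflects the variation among these arrays, some of which can be technical.

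Collagens are extracellular proteins whose chains wind around each other in a triple helix built on repeats in which glycine recurs at a fixed interval. Fibrillar types such as I, III and V are made mainly by fibroblasts and give tissue its tensile strength, while type IV forms the sheet that underlies epithelia and surrounds vessels. Type VI forms beaded filaments, type VII anchors the epithelial basement membrane to the stroma, type XVII is a transmembrane protein of the hemidesmosome, and type IX coats cartilage fibrils. In the mammary gland the stroma supplies most of the fibrillar collagen, and the basal layer of the epithelium rests on a type IV sheet.

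The values were deposited log2 levels, 1 array per tumour, and the number of arrays limits their precision. Array medians lay between 7.23 and 7.40. The 14 arrays with plain numbered titles were separated from 3 with TM titles, Squamous 9, EMT 5 and EMT 6, whose deposited values were spread more widely (SD 2.46 to 2.51, where the numbered arrays had 2.25 to 2.29). Title format was therefore a term of the model, and by that term 3 of 36 collagen genes were higher on TM arrays (21.6% of all genes) and 7 were lower (18.8% of all genes). Of the members, Col4a4, Col11a2, Col19a1 and Col20a1 had exactly equal values on the 3 TM arrays. Of the collagen genes, 23 (63.9%) lay above the lower quartile of the array on every array, against 70.2% of all genes, and Col4a3, Col4a4, Col19a1 and Col26a1 lay below it on every array.

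Collagen genes varied widely between tumours of a single histology. The median SD of a collagen gene among the 9 Squamous tumours was 0.87 on the log2 scale, against 0.25 over all 12393 genes. By class it was 1.17 for the fibrillar, 0.68 for the basement membrane and 0.87 for the other genes. Between EMT and Squamous tumours 0 of 36 collagen genes passed the threshold of 0.05 on the adjusted p in limma, as did 0 of all 12393 genes (0%). At an unadjusted p under 0.05, Col9a1 was lower in EMT tumours and 0 collagen genes were higher, against 6.27% of all genes lower and 8.08% higher. The fitted difference, EMT minus Squamous, was above 0 for 22 collagen genes and below 0 for 14, with a median of 0.20 on the log2 scale, where over all genes it was above 0 for 6417 and below 0 for 5976 with a median of 0.0064. With array weights the collagen genes divided into 18 above 0 and 18 below with a median of 0.00074, and on the numbered arrays alone, as without Squamous 9, into 26 and 10 with a median of 0.33. The median was 0.03 without EMT 4, 0.08 without Squamous 1, 0.11 without Squamous 2 and 0.12 without EMT 6. No collagen gene had all 6 EMT tumours above all 9 Squamous tumours (0.153% of all genes) or all 6 below them (0.0968% of all genes).

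**Figure D1:**
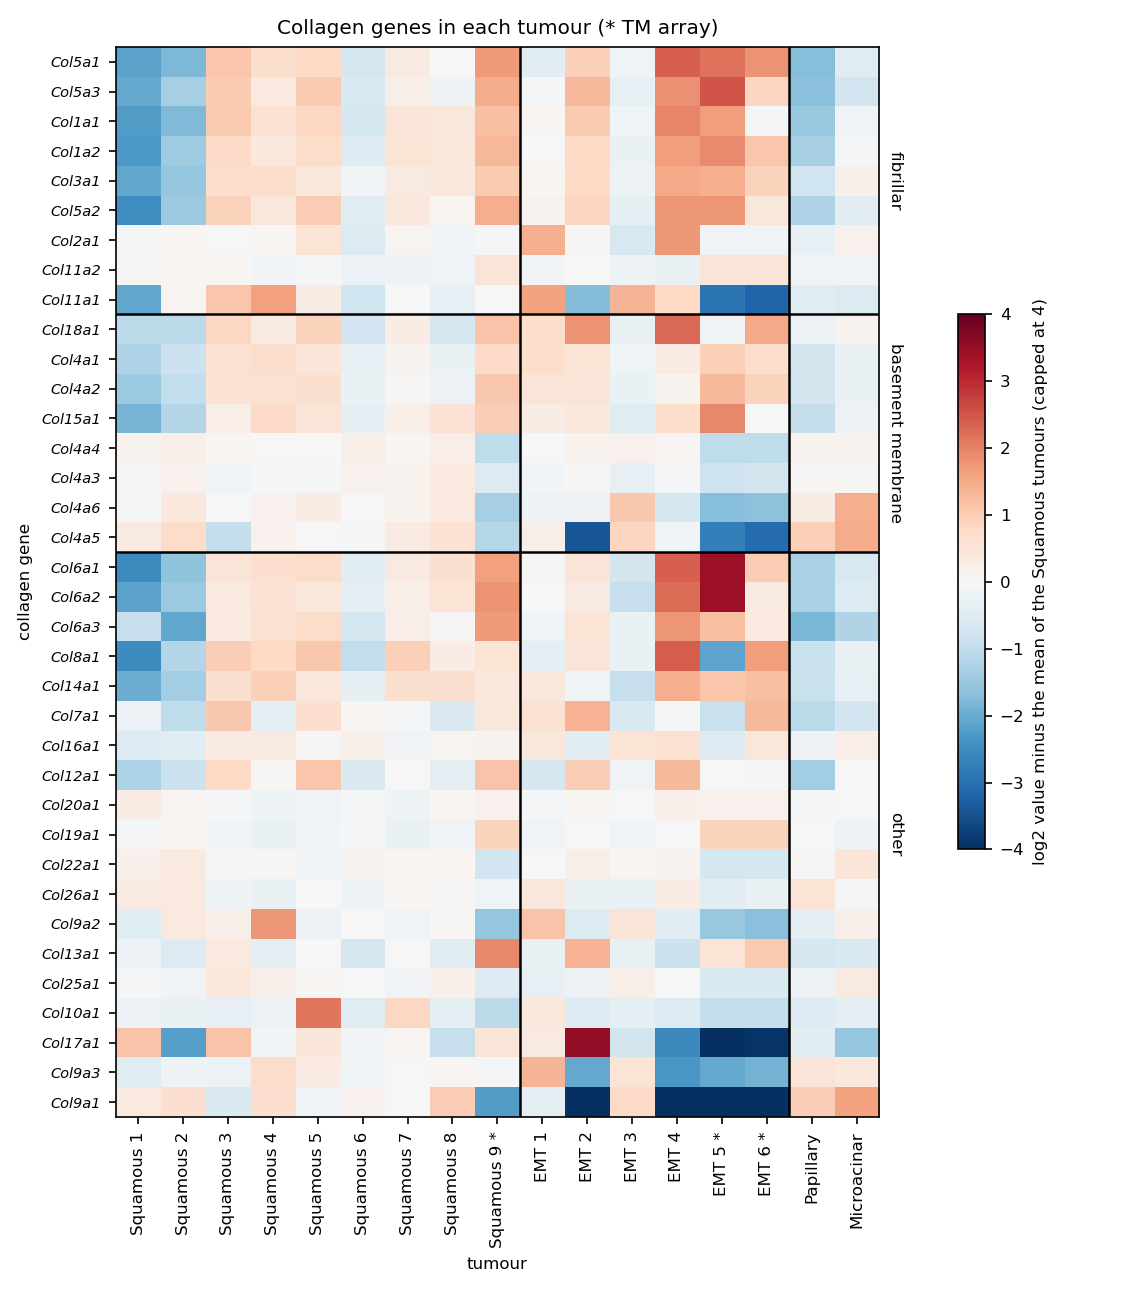
Heat map of the 36 collagen genes (rows, by class) in the 17 tumours (columns), coloured by the log2 difference from the mean of the 9 Squamous tumours. Most fibrillar and type VI genes are low in Squamous 1, Squamous 2 and the Papillary tumour and high in EMT 4 and EMT 5, and Col9a1 is low in EMT 2, EMT 4, EMT 5 and EMT 6.

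Among the fibrillar genes, 7 of 9 had a positive fitted difference between EMT and Squamous tumours and the class median was 0.56 on the log2 scale, with none past the threshold. Col1a1 (probe set 1423669_at), the major chain of type I collagen, ranged from 10.22 to 13.64 on the log2 scale in Squamous tumours, with a median of 12.97, and from 12.29 to 14.40 in EMT tumours, with a median of 13.01. The groups overlapped, with Squamous 1 at 10.22 and Squamous 2 at 10.68 below every other tumour and EMT 4 at 14.40 and EMT 5 at 14.11 above every Squamous tumour. Its fitted difference was 0.63 (SE 0.60, limma adjusted p = 0.657), and the other Col1a1 probe set gave 0.04 (SE 0.31). Without EMT 4 the Col1a1 difference was 0.27.

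Col1a2, the partner chain of type I collagen, had a level of 12.65 ± 1.18 (SD, n = 9) among Squamous and 13.52 ± 0.87 (SD, n = 6) among EMT tumours on the log2 scale. Its lowest tumours were again Squamous 1 at 10.34 and Squamous 2 at 11.24, and its highest were EMT 5 at 14.55 and EMT 4 at 14.32. Col3a1, the chain of the thin reticular fibrils, was lowest in Squamous 1 at 10.83 and highest in EMT 4 at 14.40, with Squamous and EMT medians of 13.35 and 13.75. The fitted differences were 0.61 (SE 0.51) for Col1a2 and 0.56 (SE 0.47) for Col3a1, each smaller than the SD among the Squamous tumours. Without EMT 4 they were 0.31 and 0.30.

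The 250 bases before the annotated starts of Col1a2 and Col3a1 are shown because both genes were correlated with Col1a1 across the tumours. Their correlation with each other was not measured. Their upstream sequences differ in the elements searched for. Both come from RefSeq, build GRCm38.p6, on the plus strand, at chr6:4505368-4505617 and chr1:45311288-45311537. Capitals mark matches to the CCAAT box, spelled CCAAT, the TATA box, spelled TATAAA, and the GC box, spelled GGGCGG. Each was searched on both strands, and no matches in the windows shown overlapped.
Col1a2: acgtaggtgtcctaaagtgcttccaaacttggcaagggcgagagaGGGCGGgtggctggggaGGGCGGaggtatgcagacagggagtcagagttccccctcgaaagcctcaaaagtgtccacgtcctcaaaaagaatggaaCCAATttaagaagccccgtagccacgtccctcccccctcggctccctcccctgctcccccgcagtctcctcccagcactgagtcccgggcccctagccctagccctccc
Col3a1: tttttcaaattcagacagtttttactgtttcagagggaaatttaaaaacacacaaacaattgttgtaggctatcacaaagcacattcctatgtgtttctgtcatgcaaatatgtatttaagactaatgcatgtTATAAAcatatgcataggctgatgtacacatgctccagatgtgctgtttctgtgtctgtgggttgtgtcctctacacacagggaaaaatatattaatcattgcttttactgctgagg
The Col1a2 window held CCAAT, with its first base 109 bases before the start, and GGGCGG at 205 and 188 bases before it. The Col3a1 window held TATAAA at 117 bases before the start. Of 32851 such windows of all genes, 33.8% held CCAAT, 12.4% TATAAA and 32.7% GGGCGG. There were 30 windows for 27 of the collagen genes, of which 12 (40%) held CCAAT, 5 (16.7%) TATAAA and 16 (53.3%) GGGCGG.

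The type V chains, which nucleate and limit the width of type I fibrils, were spread in the same way. Col5a1 ranged from 7.55 to 11.40 in Squamous tumours, with a median of 10.07, and stood at 9.26, 10.66, 9.54, 12.08, 11.86 and 11.51 in EMT 1 to EMT 6 on the log2 scale. The last 3 of these lay above every Squamous tumour. At least 3 of 6 EMT tumours lay above all Squamous tumours for 4 collagen genes, Col5a1, Col14a1, Col16a1 and Col18a1, against 15.1% of all genes. The fitted difference was 0.78 (SE 0.59, limma adjusted p = 0.561) for Col5a1, the highest in the class, 0.74 (SE 0.54) for Col5a3 and 0.55 (SE 0.57) for Col5a2. Col5a2 ranged from 8.96 to 12.90 and Col5a3 from 6.80 to 10.33 in Squamous tumours, and their highest EMT tumours reached 13.21 and 11.37. Without EMT 4 the differences of Col5a1, Col5a2 and Col5a3 were 0.32, 0.22 and 0.42.

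In the EMT tumours the remaining fibrillar genes were arranged differently from type I, though their correlation with type I genes was not measured. Col11a1, a chain of the minor fibrillar collagen of cartilage that some tumour fibroblasts also make, stood at 8.92, 5.57, 8.67, 8.10, 4.39 and 4.09 in EMT 1 to EMT 6 and ranged from 5.22 to 8.93 in Squamous tumours on the log2 scale. EMT 5 and EMT 6, on TM arrays, were below all Squamous tumours, while EMT 1 was almost level with the highest. Its fitted difference of -0.20 (SE 0.71), the lowest of the class, was 0.52 on the numbered arrays alone. The other Col11a1 probe set gave -0.81 (SE 0.82). Col2a1, the main chain of cartilage fibrils, ranged from 5.74 to 6.83 in Squamous tumours and stood at 7.72 in EMT 1 and 8.03 in EMT 4, with the other EMT tumours between 5.64 and 6.34. Its fitted difference was 0.49 (SE 0.32, limma adjusted p = 0.503), and 0.19 without EMT 4. Of 10 cartilage markers, Matn1 and Hapln1 never exceeded an array's lower quartile, and the list mean was 5.05 to 6.01 in Squamous and 4.91 to 6.28 in EMT tumours. Col11a2 stayed between 4.68 and 5.45 in all tumours.

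**Figure D2:**
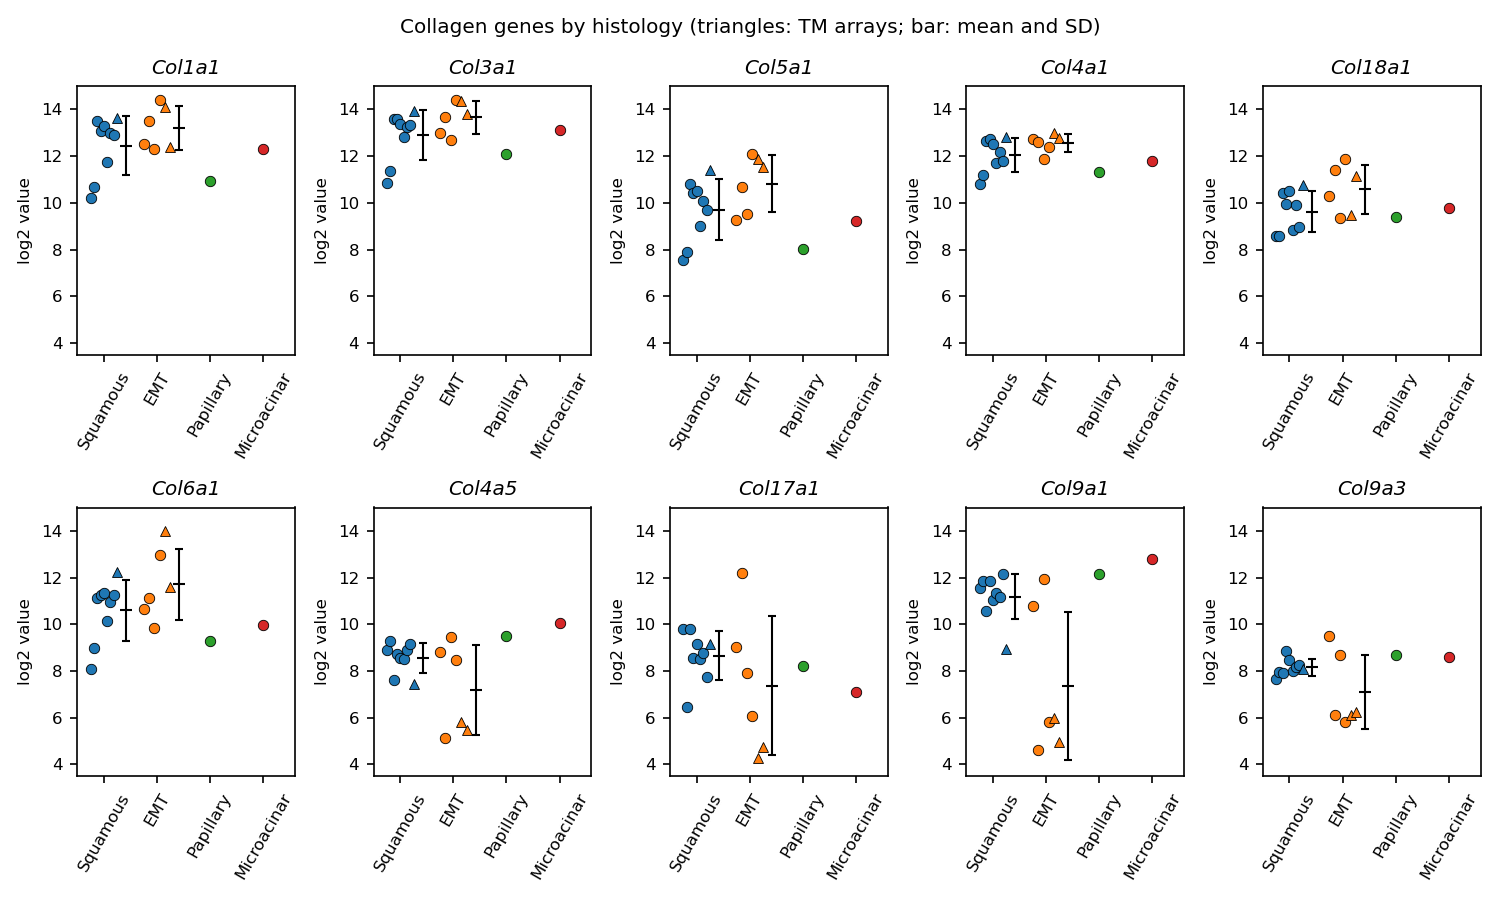
Log2 levels of 10 collagen genes by histology, with 1 point per tumour, a bar at the group mean with 1 SD for Squamous (n = 9) and EMT (n = 6), and triangles for TM arrays. Col1a1 and Col6a1 overlap between the groups, whereas Col9a1 has 4 EMT tumours at or below 5.98 and every Squamous tumour at or above 8.95.

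Of the basement membrane genes, 4 had a positive and 4 a negative fitted difference and the class median was 0.13 on the log2 scale, or -0.11 over the type IV chains alone. Col4a1, which together with Col4a2 builds the type IV network found under nearly all epithelia and endothelia, had a level of 12.04 ± 0.72 (SD, n = 9) among Squamous and 12.56 ± 0.39 (SD, n = 6) among EMT tumours. Squamous 1 at 10.81 and Squamous 2 at 11.19 were the lowest tumours and EMT 5 at 12.99 the highest. Col4a2 ranged from 9.10 to 11.66 in Squamous tumours, with a median of 10.62, and from 10.31 to 11.88 in EMT tumours, with a median of 11.10. The fitted differences were 0.37 (SE 0.30) and 0.30 (SE 0.33), and 0.24 and 0.15 without Squamous 1.

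Col4a5 and Col4a6, chains of the network in certain epithelial basement membranes, were arranged differently. Col4a5 ranged from 7.43 to 9.29 in Squamous tumours, with a median of 8.74, and stood at 8.79, 5.13, 9.44, 8.47, 5.82 and 5.48 in EMT 1 to EMT 6 on the log2 scale. EMT 2, EMT 5 and EMT 6 lay below all Squamous tumours, while EMT 3 and, at 9.52 and 10.06, the Papillary and Microacinar tumours lay above them. EMT 5 and EMT 6 are on TM arrays. By the title format term Col4a3, Col4a4, Col4a5 and Col4a6, 4 of the 8 basement membrane genes, were lower on TM arrays, against 18.8% of all genes. That term was -1.89 for Col4a5 (limma adjusted p = 0.0378). The fitted difference of Col4a5 between EMT and Squamous tumours, -0.95 (SE 0.55, limma adjusted p = 0.440), was the lowest of the class. It was -0.27 without EMT 2, and its other probe set gave -0.20. At least 3 of 6 EMT tumours lay below all Squamous tumours for Col4a5, Col9a1, Col9a3 and Col17a1, 4 of 36 genes (11.1%) against 11% of all genes. Col4a6 ranged from 5.65 to 7.40 in Squamous tumours and stood at 8.05 in EMT 3 and 8.43 in the Microacinar tumour, and on the TM arrays it was 5.28 to 5.65.

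Col15a1 and Col18a1 encode collagens that carry heparan or chondroitin sulphate chains and lie at the outer face of basement membranes. Col18a1, the source of the fragment endostatin, ranged from 8.56 to 10.76 in Squamous tumours, with a median of 9.91, and stood at 10.31, 11.41, 9.33, 11.87, 9.48 and 11.14 in EMT 1 to EMT 6 on the log2 scale. EMT 2, EMT 4 and EMT 6 lay above every Squamous tumour. Its fitted difference of 0.91 (SE 0.51, limma adjusted p = 0.423) was the highest of all 36 collagen genes and was 0.57 without EMT 4. Col15a1 had a level of 9.10 ± 0.95 (SD, n = 9) among Squamous and 9.58 ± 0.81 (SD, n = 6) among EMT tumours. Col4a3 and Col4a4, whose chains form part of the mature kidney filter, had values under the lower quartile throughout, and their differences are not read here.

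The type VI genes had some of the widest ranges of the family. Col6a1 ranged from 8.08 to 12.25 in Squamous tumours, with a median of 11.11, and stood at 10.66, 11.12, 9.85, 12.98, 14.01 and 11.60 in EMT 1 to EMT 6 on the log2 scale. EMT 4 and EMT 5 were above all Squamous tumours and EMT 3 was below the Squamous median. Col6a2 followed, with EMT 5 at 14.08 and Squamous 1 at 8.52, and its range over the 17 tumours was 5.56. Col6a3, the large chain from which endotrophin is cut, was lowest in Squamous 2 at 8.81 and highest in EMT 4 at 12.67. The fitted differences were 0.72 (SE 0.64), 0.54 (SE 0.62) and 0.37 (SE 0.49) for Col6a1, Col6a2 and Col6a3, and 0.25, 0.05 and -0.02 without EMT 4.

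The network and fibril-associated genes of the stroma had smaller or divergent differences. Col8a1, a short-chain collagen of vessels and activated mesenchyme, was 12.27 in EMT 4 and 11.53 in EMT 6 but 7.74 in EMT 5, and ranged from 7.34 to 10.92 in Squamous tumours. EMT 5, which had the highest Col6a1 level, thus had nearly the lowest Col8a1 level. Col16a1, a fibril-associated collagen, had 4 EMT tumours above the Squamous maximum of 10.41, and EMT 2 and EMT 5 at 9.65 and 9.53 near the Squamous minimum of 9.50. Col14a1, which binds the surface of type I fibrils, had a level of 9.38 ± 1.03 (SD, n = 9) among Squamous and 9.90 ± 0.93 (SD, n = 6) among EMT tumours. Col12a1, of the same subfamily, had fitted difference 0.17 and levels of 8.71 ± 0.87 (SD, n = 9) and 8.94 ± 0.75 (SD, n = 6).

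**Figure D3:**
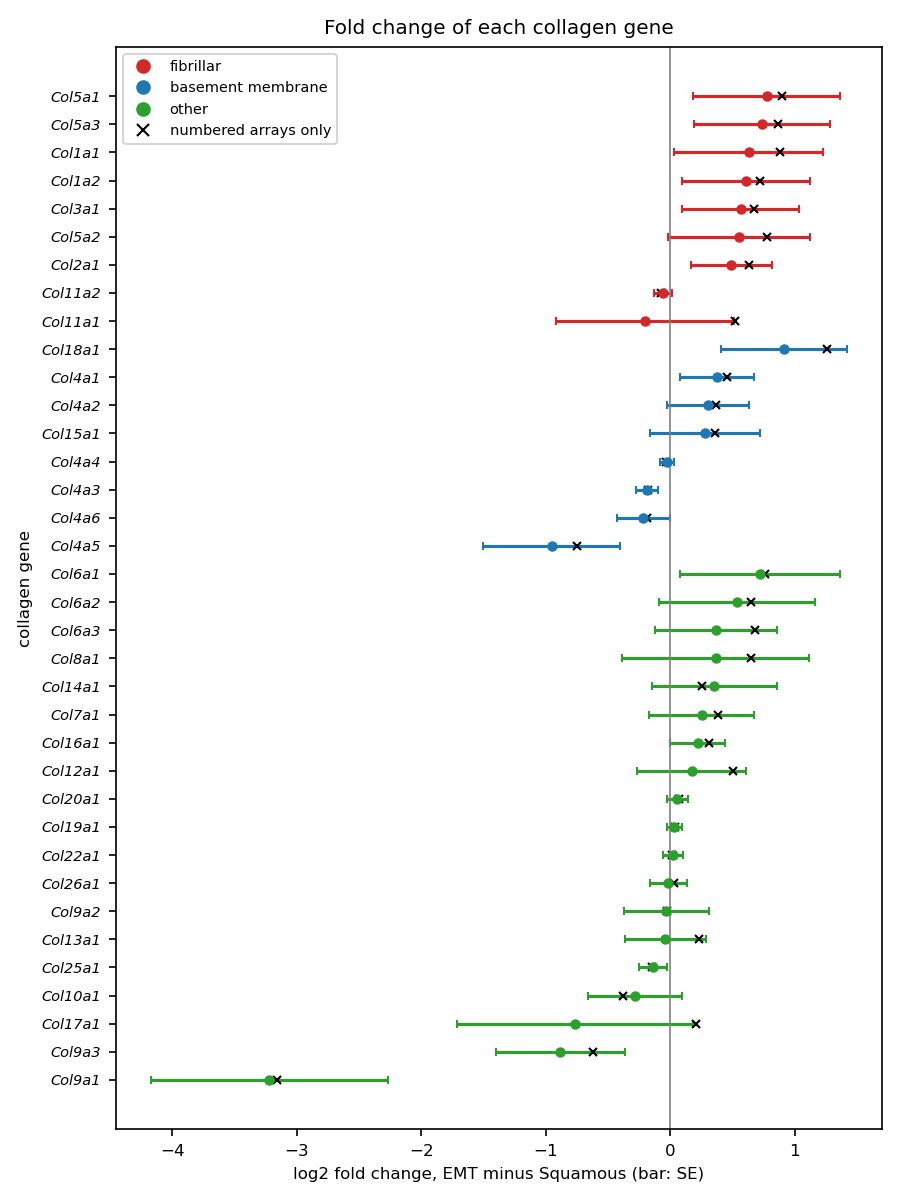
Fitted log2 difference, EMT minus Squamous, of each of the 36 collagen genes by class, with bars of 1 SE from the limma fit (9 Squamous and 6 EMT tumours) and crosses for the numbered arrays alone. Col18a1 at 0.91 is the highest and Col9a1 at -3.22 the lowest, and no gene passed the adjusted threshold.

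Certain tumours stood low or high for many collagen genes. Squamous 1 and Squamous 2 were the lowest 2 of the 9 Squamous tumours for 17 of the 36 collagen genes (47.2%), against 9.52% of all genes. They were the lowest 2 of all 17 tumours for 12 collagen genes (33.3%), against 3.87% of all genes. EMT 4 alone had the highest level of all tumours for 10 collagen genes (27.8%), against 7.85% of all genes. EMT 5, on a TM array, did so for 8 (22.2%), against 14.97% of all genes. These tumours were picked out after the values were seen, and the shares are a description. The mean of the 6 type I, III and V genes differed from the Squamous average by -2.22 in Squamous 1 and -1.55 in Squamous 2 on the log2 scale. In EMT 4, EMT 5 and Squamous 9 this difference was 1.85, 1.91 and 1.37. EMT 1 and EMT 3 were close to the Squamous average, at -0.04 and -0.24. EMT 4 and EMT 5 had all 6 genes above the Squamous range, and EMT 6 had 1.

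Fibroblast, endothelial and macrophage markers were also low in Squamous 1 and Squamous 2. The mean of 10 fibroblast markers was 7.53 in Squamous 1 and 7.87 in Squamous 2 on the log2 scale, against 9.40 to 10.09 in the other Squamous tumours. It was 11.07 in EMT 4 and 10.17 in EMT 5, above every Squamous tumour, and 8.62 to 9.61 in the other EMT tumours. In EMT 5 Pdgfra, Postn and Mfap5 lay above every Squamous tumour, but the other fibroblast markers did not. Thy1 at 8.85 and Fap at 8.04 were below their Squamous means of 9.23 and 8.29 there. In EMT 6 Pdgfra, Dcn and Postn lay above every Squamous tumour and Dpt at 7.09 lay below every one. The mean of 8 endothelial markers was 6.16 and 6.40 in Squamous 1 and Squamous 2, with 7.07 to 8.18 in the other Squamous and 6.83 to 7.98 in the EMT tumours. The mean of 8 macrophage markers was 9.14 and 9.52 in Squamous 1 and Squamous 2 and 9.59 to 11.26 in the other Squamous tumours. It was 11.11, 12.47 and 12.02 in EMT 4, EMT 5 and EMT 6, and 9.73 to 9.99 in EMT 1 to EMT 3. This list was divided in EMT 4, where Csf1r and Mrc1 lay above every Squamous tumour and Cd14 lay below. Cd14 stood at 10.12, 9.61, 10.75, 9.17, 12.12 and 11.86 in EMT 1 to EMT 6, against 11.09 to 12.23 in Squamous tumours. Of the fibroblast markers 0 of 10, of the endothelial markers 0 of 8 and of the macrophage markers 0 of 8 passed the threshold between EMT and Squamous tumours. Their part in the collagen values was not tested, and in bulk tumours fewer cells of a type and less RNA per cell cannot be told apart.

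**Figure D4:**
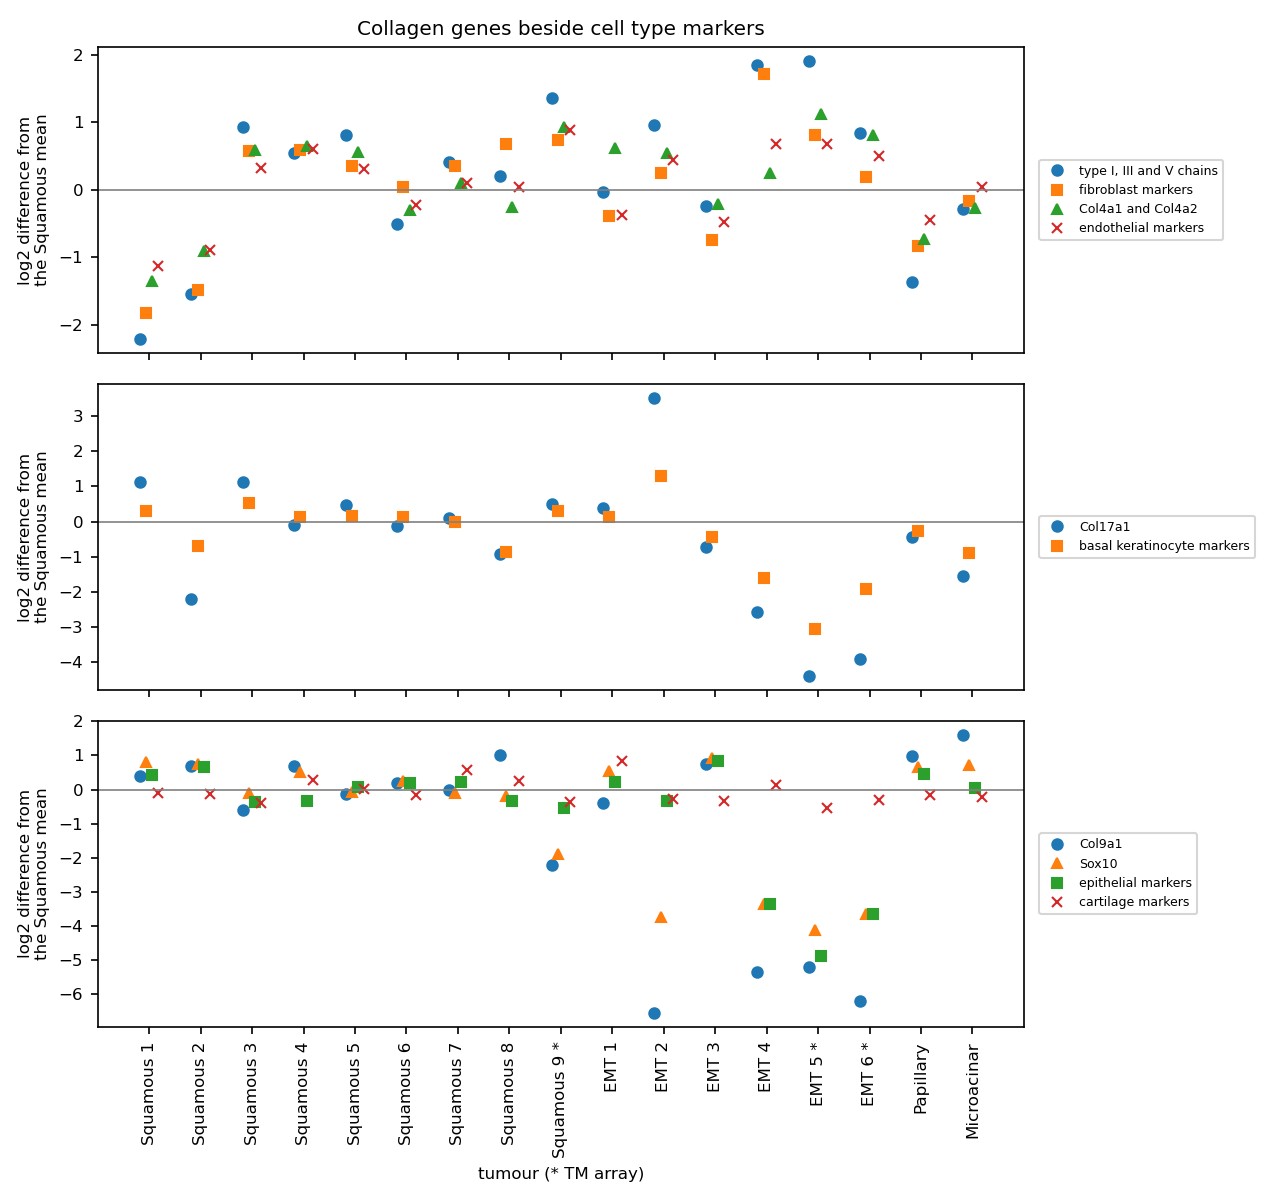
Log2 difference of each tumour from the Squamous mean for groups of collagen genes and for the means of marker lists, with tumours along the horizontal axis and TM arrays starred. The type I, III and V genes lie near the fibroblast markers in Squamous 1 (-2.22 and -1.82) and EMT 4 (1.85 and 1.71). They lie further apart in EMT 5 (1.91 and 0.81), EMT 2 (0.95 and 0.25) and EMT 6 (0.85 and 0.19). Col9a1 is low with Sox10 in EMT 2, where the epithelial marker mean differs from the Squamous mean by -0.33.

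Col9a1 (probe set 1428571_at), a chain of the type IX collagen best known from cartilage, had the lowest fitted difference and the widest range of the family. It stood between 8.95 and 12.17 in Squamous tumours, with a median of 11.35, and at 10.76, 4.63, 11.93, 5.83, 5.98 and 4.97 in EMT 1 to EMT 6 on the log2 scale. EMT 2, EMT 4, EMT 5 and EMT 6 lay below all Squamous tumours, whereas EMT 1 and EMT 3 lay among them, and the Papillary and Microacinar tumours stood at 12.15 and 12.78. The fitted difference was -3.22 (SE 0.95, limma adjusted p = 0.209) and did not pass the threshold, with a range from -4.16 to -2.30 when 1 tumour was left out. The other Col9a1 probe set gave -1.43 (SE 0.55) and followed the first across the tumours with r = 0.956. With array weights the difference was -1.88.

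The pair of annotated Col9a1 starts is shown because the gene divided the EMT tumours most sharply. The windows of 250 bases before them lie at chr1:24177360-24177609 and chr1:24194953-24195202 on the plus strand (RefSeq, GRCm38.p6), with CCAAT in capitals.
Col9a1 first start: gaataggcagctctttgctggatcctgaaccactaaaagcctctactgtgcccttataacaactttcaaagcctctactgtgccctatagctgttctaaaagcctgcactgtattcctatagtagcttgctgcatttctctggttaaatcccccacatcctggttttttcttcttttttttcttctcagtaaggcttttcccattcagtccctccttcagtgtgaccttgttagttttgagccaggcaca
Col9a1 second start: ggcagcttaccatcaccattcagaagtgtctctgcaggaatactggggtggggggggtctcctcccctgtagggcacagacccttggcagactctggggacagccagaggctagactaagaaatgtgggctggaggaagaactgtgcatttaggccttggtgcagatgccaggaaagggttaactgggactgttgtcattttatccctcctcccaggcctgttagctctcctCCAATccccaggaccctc
The first window held none of the 3 motifs, and the second held CCAAT at 18 bases before the start. The arrays do not tell which start was used.

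The other type IX chains followed Col9a1 only in part. Col9a3 ranged from 7.67 to 8.88 in Squamous tumours and stood at 9.51, 6.12, 8.70, 5.84, 6.11 and 6.26 in EMT 1 to EMT 6 on the log2 scale. The same 4 EMT tumours that were low for Col9a1 lay below all Squamous tumours for Col9a3, and EMT 1 had its highest level. At least 4 of 6 EMT tumours lay below all Squamous tumours for Col9a1 and Col9a3 among the 36 genes, against 3.74% of all genes. The fitted difference of Col9a3 was -0.88 (SE 0.52, limma adjusted p = 0.444), or -0.49 without EMT 4, and that of Col9a2 was -0.03, with Col9a2 levels of 6.49 ± 0.87 (SD, n = 9) and 6.07 ± 1.10 (SD, n = 6).

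Epithelial markers were also low in some of these tumours. The mean of 9 epithelial markers was 10.77 to 11.98 in Squamous tumours and 11.55, 10.99, 12.16, 7.96, 6.44 and 7.69 in EMT 1 to EMT 6 on the log2 scale. This mean was low in EMT 4, EMT 5 and EMT 6, but not every marker was. Krt8 stood at 13.20, 7.35 and 12.50 in these tumours, against 11.56 to 13.18 in Squamous tumours. Krt18 stood at 12.29, 6.61 and 11.52, against 11.18 to 12.61. The other markers of the list lay below every Squamous tumour in EMT 4, EMT 5 and EMT 6. In EMT 2, which had the lowest Col9a1 level, 6 of the 9 markers lay within the Squamous range, E-cadherin (Cdh1) at 12.09 lay above it, and Cldn3 at 9.09 and Esrp1 at 10.49 lay below it. Sox10, a transcription factor of neural crest and of mammary progenitor cells, was 11.32, 7.06, 11.73, 7.45, 6.67 and 7.13 in EMT 1 to EMT 6 and 8.89 to 11.61 in Squamous tumours. Its low tumours were those of Col9a1, and the part of any of these markers in the Col9a1 values was not tested.

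Col17a1, the hemidesmosomal collagen of basal epithelial cells, was both highest and lowest in EMT tumours. It ranged from 6.47 to 9.79 in Squamous tumours, with a median of 8.77, and stood at 9.03, 12.18, 7.93, 6.07, 4.26 and 4.74 in EMT 1 to EMT 6 on the log2 scale. EMT 2 lay above and EMT 4, EMT 5 and EMT 6 below every Squamous tumour. The fitted difference was -0.77 (SE 0.95, limma adjusted p = 0.742) and 0.21 on the numbered arrays alone. The mean of 8 basal keratinocyte markers was 9.27 to 10.65 in Squamous tumours and 10.26, 11.43, 9.69, 8.52, 7.07 and 8.22 in EMT 1 to EMT 6, so the tumour with the highest Col17a1 level was also highest for this list. In EMT 4 and EMT 6 the list was divided. Itgb4 (10.39 and 10.11) and Dst (10.50 and 10.72) lay above the Squamous maxima of 9.86 and 9.60. Krt5, Krt14, Krt15 and Trp63 lay below every Squamous tumour there, and Itga6 and Lamb3 lay within the range. Col7a1, the anchoring fibril collagen, had levels of 8.93 ± 0.66 (SD, n = 9) and 9.22 ± 0.96 (SD, n = 6), with 10.31 in EMT 2, 10.22 in EMT 6 and 8.04 in EMT 5.

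The 250 bases before the Col17a1 start, at chr19:47692043-47692292 on the minus strand (RefSeq, GRCm38.p6), are shown for contrast with the stromal genes above.
Col17a1: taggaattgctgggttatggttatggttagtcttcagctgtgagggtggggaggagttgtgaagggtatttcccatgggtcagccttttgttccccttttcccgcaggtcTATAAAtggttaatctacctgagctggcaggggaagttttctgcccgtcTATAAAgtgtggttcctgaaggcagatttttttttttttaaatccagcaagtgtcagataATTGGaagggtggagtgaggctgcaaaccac
Capitals mark TATAAA at 140 and 91 bases before the start and CCAAT on the opposite strand at 31 bases before it.

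The remaining genes had low or narrow values. Col10a1, the collagen of hypertrophic cartilage, stood at 7.42 in Squamous 5 and 6.12 in Squamous 7 against 4.22 to 5.05 in the other Squamous tumours on the log2 scale. Col13a1, a transmembrane collagen, was 7.21 in Squamous 9, 5.84 in EMT 5 and 6.35 in EMT 6, all on TM arrays. It was 6.70 in EMT 2, and the other Squamous tumours reached at most 5.71. By the title format term Col13a1 was higher on TM arrays by 1.34 (limma adjusted p = 0.0171). Col25a1 ranged from 6.65 to 7.70 over all tumours and stood between 6.65 and 6.75 on the 3 TM arrays. Col20a1 and Col22a1 had probe sets with differences of opposite sign, and their chosen probe sets ranged from 5.54 to 6.03 and from 4.17 to 5.43 over all tumours.

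The Papillary and Microacinar tumours had 1 array each, so their values have no replicate check. The Papillary tumour lay above the Squamous range for Col4a5 and Col26a1 (8.26% of all genes) and below it for Col7a1, Col12a1 and Col13a1 (8.26% of all genes). The Microacinar tumour lay above the range for Col4a5, Col4a6, Col9a1 and Col22a1 (11.1% of all genes) and below it for 0 collagen genes (10% of all genes). Except for the last, where the share of all genes was higher, these shares are near those of all genes. Col26a1 lay below the lower quartile on every array, so its place is not read. In the Papillary tumour Col1a1 stood at 10.94 and Col3a1 at 12.10, below every Squamous tumour except Squamous 1 and Squamous 2. Its fibroblast marker mean of 8.53 was also between these and the other Squamous tumours. In the Microacinar tumour Col1a1 stood at 12.31 and Col6a1 at 9.97, within the Squamous range.

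Collagen genes were compared in 16 pairs by permutation, most of them chains of a common molecule or fibril and 4 of them chains of different types for contrast (Col1a1 with Col4a1, Col6a1 and Col17a1, and Col7a1 with Col17a1). All 17 tumours were used, except for the Col9a1 pairs, which used 13. For 12 of the 16 pairs the Benjamini-Hochberg adjusted permutation p of Pearson's r was under 0.05. Col1a1 and Col1a2 had r = 0.956 and Spearman's rho = 0.922 (permutation p = 1e-05, the smallest that 100000 resamples can give; adjusted p = 2.29e-05). Without Squamous 1 and Squamous 2, the tumours farthest from the median of Col1a1, r was 0.919, and on the 14 numbered arrays it was 0.993. The correlation therefore did not rest on these tumours. Col1a1 was similarly correlated with Col3a1 (r = 0.948, rho = 0.914), Col5a1 (r = 0.921, rho = 0.900) and Col6a1 (r = 0.915, rho = 0.877), each with the same permutation p, and r without the 2 farthest tumours was 0.909, 0.871 and 0.861. Col5a1 with Col5a2 (r = 0.949, rho = 0.946), Col6a1 with Col6a3 (r = 0.868, rho = 0.936) and Col1a1 with Col4a1 (r = 0.849, rho = 0.745) were also past the threshold.

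Col4a1 and Col4a2 are transcribed away from each other on chromosome 8, with annotated starts 21 bases apart (11312826 on the minus and 11312805 on the plus strand, GRCm38.p6). Their levels had r = 0.981 and rho = 0.956, and r = 0.965 without the 2 farthest tumours. Col4a5 and Col4a6 lie head to head on chromosome X with starts 1343 bases apart, and had r = 0.776 and rho = 0.858 (permutation p = 0.00065, adjusted p = 0.000945). On the numbered arrays alone r was 0.558 with an adjusted permutation p of 0.0783, whereas rho was 0.789 with an adjusted permutation p of 0.00236. Without EMT 2 and EMT 6, the 2 tumours farthest from the median of Col4a5, r was 0.880. Col6a1 and Col6a2, which lie on 1 strand with starts 102640 bases apart, had r = 0.989 and rho = 0.953.

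**Figure D5:**
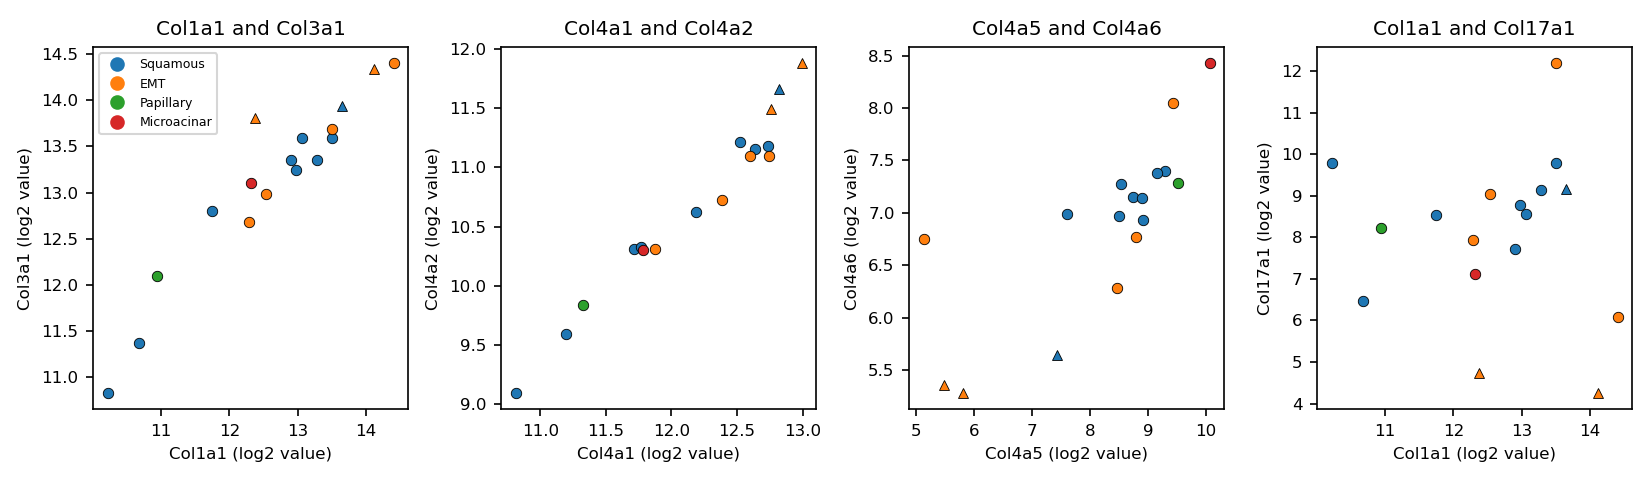
Log2 levels of 4 pairs of collagen genes in the 17 tumours, 1 point per tumour, coloured by histology, with triangles for TM arrays. Col1a1 with Col3a1 (r = 0.948) and Col4a1 with Col4a2 (r = 0.981) lie along a line, Col4a5 with Col4a6 is looser (r = 0.776), and Col1a1 with Col17a1 shows no line (r = -0.07).

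Other pairs were less closely or less steadily correlated. Col9a1 separated into 13 tumours at or above 8.95 and 4 at or below 5.98 on the log2 scale, so no pooled correlation is given. Within the 13 it had r = 0.468 and rho = 0.247 with Col9a2 (permutation p = 0.113, adjusted p = 0.129) and r = 0.149 and rho = 0.264 with Col9a3 (permutation p = 0.614, adjusted p = 0.655). Col1a1 had r = -0.07 and rho = 0.05 with Col17a1 (adjusted permutation p = 0.789). Col7a1 had r = 0.420 and rho = 0.537 with Col17a1 (adjusted permutation p = 0.115 for r and 0.038 for rho), and r was 0.746 on the numbered arrays (adjusted permutation p = 0.00283). Col11a1 had r = -0.58 and rho = -0.32 with Col11a2 (adjusted permutation p = 0.0183 for r and 0.262 for rho). The value of r was -0.15 without EMT 5 and EMT 6, the 2 farthest tumours, and thus rests on them. Col4a3 and Col4a4 had r = 0.902, with both genes under the lower quartile throughout.

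The genes outside the family that followed a collagen gene most closely are given as a description over the 17 tumours. For Col1a1 they were Bgn, the small proteoglycan biglycan (r = 0.969), Ccdc80 (r = 0.949), Srpx2 (r = 0.939), Mfap5, a microfibril protein (r = 0.932), and Egfl7 (r = 0.930). For Col4a1 they were Cd93 (r = 0.913), Cdh5, the cadherin of endothelial junctions (r = 0.912), Sipa1l2 (r = 0.896), Crot (r = 0.894) and Nid2, a basement membrane linker (r = 0.894). For Col17a1 they were the keratins Krt17 (r = 0.957) and Krt5 (r = 0.951), then Pard6g (r = 0.950), Fgfbp1 (r = 0.942) and Mall (r = 0.927). Of these genes Mfap5, Cdh5 and Krt5 also belong to the fibroblast, endothelial and basal keratinocyte lists. For Col2a1 the values were lower, with Ptprd (r = 0.816), A630072M18Rik (r = 0.809), Loxl4 (r = 0.798), Poglut1 (r = 0.798) and Rab6b (r = 0.770).

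The genes that modify, cut, crosslink or bind collagen were measured for 38 of 51 members of a list, and none passed the threshold between EMT and Squamous tumours in limma. At an unadjusted p under 0.05, 8 were higher and 3 lower, where over all genes 8.08% were higher and 6.27% lower. The fitted difference was above 0 for 31 and below 0 for 7, with a median of 0.52 on the log2 scale, beside 0.20 for the collagen genes and 0.0064 for all genes. The median was 0.62 for 16 hydroxylases, glycosyl transferases and chaperones, 0.50 for 5 propeptide proteinases and helpers, 0.91 for 4 crosslinking enzymes, 0.49 for 7 collagenases and 0.32 for 6 receptors. Plod2, the lysyl hydroxylase of the collagen telopeptides, had the highest difference of the list at 1.72 (SE 0.52, limma adjusted p = 0.210), with Squamous tumours from 6.24 to 9.32. Mmp8, the neutrophil collagenase, had the lowest at -1.40 (SE 0.49).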

How the data were processed

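The data were 17 Affymetrix arrays, 1 per tumour, hybridised with labelled cRNA made from total RNA, per the labels' protocols. The deposited values were log2 levels per probe set for 22690 probe sets, a scale read from the values. The normalisation and summarisation used by the authors are not given in the sources used here, and a low value may lie at a floor set by them. Of the probe sets 64 were controls, 20380 were paired with 1 gene symbol, 691 with several and 1555 with none, and 20351 of the single-gene probe sets were matched by gene identifier. The probe set with the highest mean represented each of 12393 genes, and no further normalisation was applied.

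Squamous (n = 9) and EMT (n = 6) tumours entered a linear model of all genes in limma 3.58.1 (R 4.3.3), whose terms were histology and title format, with Benjamini-Hochberg adjustment over all genes. The Papillary and the Microacinar tumour, with 1 array each, were not in this model. Correlations used two-sided permutation with 100000 resamples in scipy 1.17.1 and numpy 2.4.6. Named genes were those of highest mean in each class, the highest and lowest difference per class, the 8 widest ranges, the members of the chain pairs, probe sets of opposite sign and tumours far from their group. Genes given outside this rule were chosen after their values were seen. The members, classes and lists were chosen with earlier results of these data known.

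The model was tested on simulated data of the EMT and Squamous comparison over 12393 genes. It recovered 38 of 50 genes at a log2 fold of 1, 45 at 2, 49 at 3 and 50 at 4, with 13 false calls. The changed genes were drawn from all genes and shifted equally in every simulated EMT tumour. Collagen genes varied more, with a median SD of 0.87 among Squamous tumours against 0.25 over all genes. The recovery therefore does not carry over to them. RNA integrity, read as the 3′ minus 5′ log2 difference of control probe sets, was -0.03 to 0.39 for Gapdh and 0.44 to 0.96 for Actb.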

Additional observations from a re-analysis of the deposited data

Results flagged for a closer look

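In 7 of 72 sets tested, a collagen gene within a histology, 1 tumour lay far from its group by Dixon's test, where chance flags about 5% of sets. All 7 were Squamous 9, the only Squamous tumour on a TM array. On the log2 scale it was highest of the 9 Squamous tumours for Col13a1 (7.21, next 5.71), Col11a2 (5.45, next 5.01) and Col19a1 (5.12, next 4.29). It was lowest for Col9a1 (8.95, next 10.58), Col4a6 (5.65, next 6.94), Col22a1 (4.17, next 4.80) and Col4a4 (3.56, next 4.58). For Col4a4, Col11a2 and Col19a1 the 3 TM arrays had exactly equal values. For these 7 genes array format and tumour cannot be told apart within the Squamous group.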

How the results depend on the processing

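Under every alternative run 0 collagen genes passed the adjusted threshold, and without EMT 1, 14 of all genes passed. No paired analysis was possible because the Squamous and EMT tumours share no replicate or title number. The only number shared between histologies links Squamous 5 with the single Microacinar tumour. That tumour entered only the alternative run of all 17 tumours in 4 groups. With array weights 8 of 22 named differences changed sign: Col5a2 -0.041, Col11a1 0.25, Col4a6 0.026, Col15a1 -0.12, Col6a1 -0.029, Col6a2 -0.16, Col6a3 -0.10 and Col8a1 -0.11. The fibrillar median was then 0.07 and that of the other collagens -0.11. On the numbered arrays alone Col11a1 was 0.52 and Col17a1 0.21. When 1 tumour was left out, the difference ranged from -0.61 to 0.52 for Col11a1, -0.020 to 0.68 for Col6a3 and -0.15 to 0.72 for Col8a1. It ranged from -0.038 to 0.47 for Col7a1 and -1.79 to 0.21 for Col17a1, and the fibrillar median from 0.27 without EMT 4 to 0.80. The upper ends for Col11a1, Col6a3 and Col17a1 came without Squamous 9, the only Squamous tumour on a TM array. The title format term then takes up EMT 5 and EMT 6, so these differences equal those on the numbered arrays alone. Without the 2 farthest tumours r was -0.0147 for Col9a1 with Col9a2, -0.0404 for Col9a1 with Col9a3, -0.151 for Col11a1 with Col11a2 and 0.637 for Col7a1 with Col17a1. On the numbered arrays r was -0.0231 for Col9a1 with Col9a2, -0.248 for Col11a1 with Col11a2, 0.0954 for Col1a1 with Col17a1, 0.558 for Col4a5 with Col4a6 and 0.746 for Col7a1 with Col17a1. The cause of these changes was not tested. The 17 arrays, 3 of another title format, limit the precision, and collagen genes below the lower quartile of every array have no readable differences.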

Other observations

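Col9a1 and Col4a5 were examined for their closest genes after their values had been seen, so these are descriptions. For Col9a1 the highest r over the 17 tumours was with Clca3a2 (0.973), Igsf5 (0.972), Mgst1 (0.971), Wfdc18 (0.971) and Sox10 (0.970). For Col4a5 it was with Gstt3 (0.935), Pdgfc (0.929), Ica1 (0.927), Clca3a1 (0.926) and Klhl13 (0.925). Col9a1 falls into separate clusters of tumours, so its values of r mainly order the clusters.

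EMT 4, with the highest Col2a1 level of 8.03, also had aggrecan (Acan), the main proteoglycan of cartilage, at 8.25, against 4.39 to 5.17 in Squamous tumours. The mean of the 10 cartilage markers in EMT 4 was 5.58, a log2 difference of 0.14 from the Squamous mean, and Chad at 4.08 and Snorc at 5.70 lay below every Squamous tumour. Skeletal muscle markers in EMT 4 had a mean of 11.11 on the log2 scale, and 5.13 to 9.38 in Squamous tumours. This mean was also above the Squamous range in the Microacinar tumour at 10.30 and in the Papillary tumour at 9.99.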
